A study of Mus musculus with 12 samples.

Results

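Plau encodes urokinase plasminogen activator and Plaur encodes the receptor that holds it at the cell surface. They are 2 of the 547 mouse genes measured here, and both were selected by symbol, 1 row each, with the values of these libraries already known. Their levels are therefore given as a description of the samples, with standard errors and no test. NanoString probes carrying a barcode for each gene were used on RNA of 12 male C57BL6-NJ mice, in a study of how the loss of sphingosine kinase 2 (SphK2), an enzyme that makes sphingosine 1-phosphate, bears on liver inflammation in early metabolic dysfunction-associated steatohepatitis (MASH). Mice were wild type (WT) or constitutive SphK2 knockouts (KO), and for 16 weeks, by the stated protocol, they ate a Western diet and drank sugar water, or ate a control diet and drank normal water. There were 3 mice in each of the 4 groups: WT on the control diet, KO on the control diet, WT on the Western diet and KO on the Western diet. Labelled ages were 231 to 232 days in WT on the control diet, 226 to 232 in WT on the Western diet, 250 to 259 in KO on the control diet and 217 to 252 in KO on the Western diet. Within the control diet, genotype and labelled age cannot be told apart.

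Urokinase is a secreted serine protease that cleaves plasminogen to plasmin, and plasmin breaks down fibrin and other matrix proteins. Its receptor is anchored in the membrane by a glycolipid and has no part inside the cell. It gathers protease activity at the leading edge of moving cells, and also binds vitronectin and works together with integrins in adhesion and migration. Monocytes, macrophages, neutrophils and endothelial cells are known sources, and in the liver the system takes part in matrix turnover and regeneration.

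Library totals ran from 440842 to 643638 recovered counts, of which 46.9% to 58.4% fell on the 10 genes with the highest counts. The title of the series names the liver, while the sample labels do not. The 8 hepatocyte markers on the panel summed to between 44766 and 142061 normalized counts. Sphk2 was not among the probes, so the knockout was not checked in the RNA. WT Western-diet replicate 2 stood apart from its group. On the first principal component, which held 58.9% of the variance of 453 genes, it lay at -5.59, between the control-diet libraries at -6.65 to -3.76. The other WT Western-diet libraries lay at 5.29 and 1.13, and the KO Western-diet libraries at 10.3 to 11.6. KO control-diet replicate 2 lay within its group on this component, at -4.40. It held the lowest Plau and the highest neutrophil marker sum of all 12. Each library carries its own animal number in the labels.

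The promoter of Plaur is shown because both genes were high in the same group, and because transcription factors known to act on such promoters are among the probes. RefSeq gives 250 bases before and 50 bases after the annotated start in GRCm38.p6, on the plus strand at chr7:24462233-24462532. A promoter was matched for 1 of the 2 genes. Capitals mark letters that match 3 motifs searched on both strands: AP-1 as TGANTCA, ETS as AGGAAG and the GC box as GGGCGG.
Plaur: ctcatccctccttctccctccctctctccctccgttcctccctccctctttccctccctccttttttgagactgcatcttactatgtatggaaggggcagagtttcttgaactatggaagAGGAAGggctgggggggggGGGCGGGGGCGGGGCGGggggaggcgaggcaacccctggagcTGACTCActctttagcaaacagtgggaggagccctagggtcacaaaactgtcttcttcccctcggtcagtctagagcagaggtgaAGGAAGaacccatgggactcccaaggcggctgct
Positions are counted from the annotated start as 1, with no 0. The AP-1 letters occurred once, at -69 to -63, and 7.81% of 32851 promoters of this length held them. The ETS letters occurred at -130 to -125 and at 17 to 22, and 35.4% of promoters held them. The GC box occurred 3 times, at -111 to -106, -105 to -100 and -100 to -95, with the last 2 sharing a base, and 35.7% of promoters held it. The kappaB consensus, the binding letters of NF-kappaB and held by 8.46% of promoters, was not in this window. These are matches of letters, and binding was not measured.

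Plau was low in WT on the control diet, at 28.2, 30.2 and 26.6 normalized counts in replicates 1, 2 and 3 (28.3 ± 1.82, SD, n = 3). In KO on the control diet it was 40.0, 24.3 and 36.5 (33.6 ± 8.26). Replicate 2 of this group lay below all 3 WT control-diet libraries and the other 2 above them, so the groups overlapped. In WT on the Western diet Plau was 84.5, 36.7 and 65.3 (62.2 ± 24.0), all above the WT control-diet libraries. Replicate 2, the library that stood apart, was the low one. In KO on the Western diet it was 119, 108 and 126 (118 ± 9.0), above every other library. The lowest of these 12 values rested on 19 recovered counts, with an exact Poisson 95% interval of 11.4 to 29.7, and the highest on 163, with 138.9 to 190. These intervals cover counting error only. In RNA of a whole tissue, fewer cells of a type and less RNA per cell cannot be told apart.

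Plaur was 25.3, 25.7 and 24.5 normalized counts in WT on the control diet (25.2 ± 0.605, SD, n = 3). In KO on the control diet it was 41.0, 52.3 and 44.5 (45.9 ± 5.81). Here all 3 knockout libraries lay above all 3 WT libraries, unlike Plau. In WT on the Western diet Plaur was 65.6, 36.7 and 54.4 (52.2 ± 14.6), again with replicate 2 lowest and all 3 above the WT control-diet libraries. In KO on the Western diet it was 118.6, 105.3 and 101.9 (108.6 ± 8.78), above every other library. How many of all genes separate KO from WT libraries in this way, on either diet, was not counted. Of the 453 genes tested by limma, 1.99% were called higher in KO on the control diet and 32.2% on the Western diet.

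**Figure D1:**
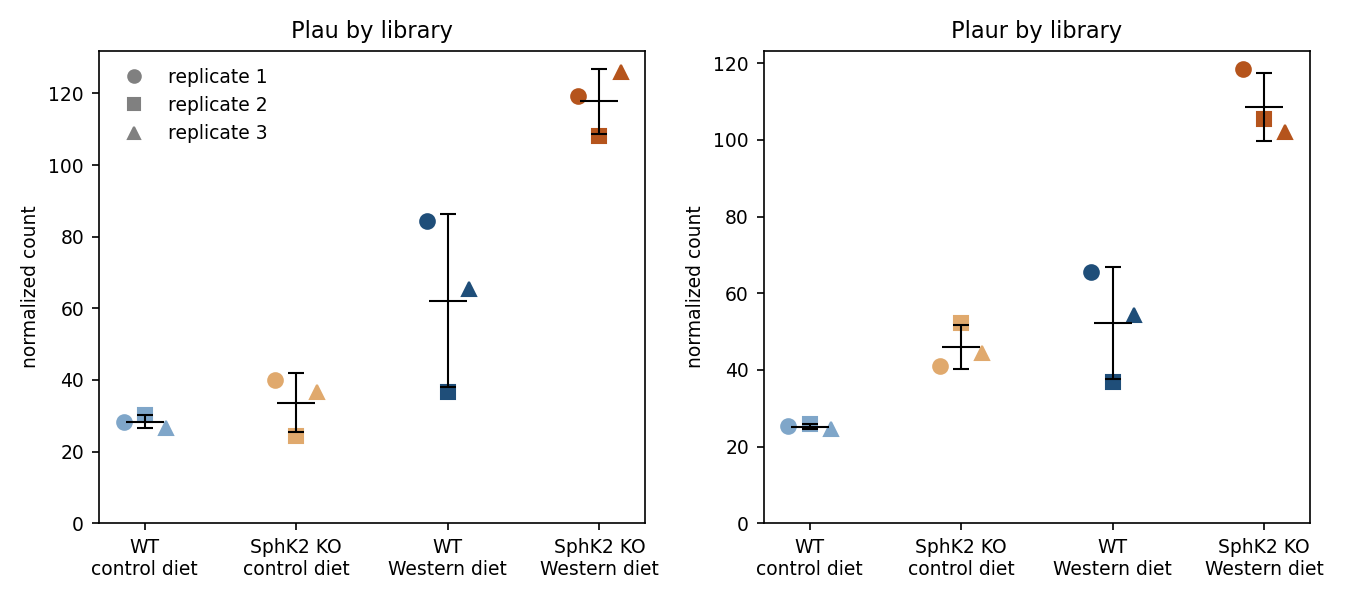
Normalized counts of Plau (left) and Plaur (right) on linear axes from 0, with 1 symbol per library by replicate and bars for the mean and SD of 3 libraries. KO Western-diet libraries sit highest in both panels, and in the control-diet groups only the Plaur panel separates KO (41.0 to 52.3) from WT (24.5 to 25.7).

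The 4 groups had the same order of means in both genes: KO on the Western diet, WT on the Western diet, KO on the control diet, WT on the control diet. For Plau the step from WT to KO on the Western diet was 1.89-fold in mean counts, and its size of 55.6 counts was larger than the sum of both SDs, 33.0. The next step, from KO on the control diet to WT on the Western diet, was 1.85-fold, but 28.6 counts against summed SDs of 32.3, and the libraries overlapped. The lowest step was 1.18-fold, with 5.24 counts against 10.1. For Plaur the top step was 2.08-fold, 56.4 counts against 23.3. The middle step was 1.14-fold and within the spread, 6.31 counts against 20.4. The lowest was 1.82-fold, 20.7 counts against 6.42. The 2 genes thus differed in where KO on the control diet lay: beside WT on the control diet for Plau, and beside WT on the Western diet for Plaur.

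On the log2(normalized count + 1) scale, fitted with limma to all 12 libraries, KO minus WT on the Western diet was 0.99 ± 0.27 (SE) for Plau and 1.08 ± 0.20 for Plaur. These differences ranked 36 and 24 from the top of 453 genes, in a comparison whose median gene was at 0.26. Of all genes tested 32.2% were called higher in KO here and 3.31% lower, at an adjusted p of 0.05. Many genes thus differed the same way in the authors' scaling, and the members' higher values are read against that share. The split of 146 higher and 15 lower genes changed with the scaling. It was 69 and 43 on median ratios, 42 and 53 by quantile normalization, and 26 and 130 with libraries recentred on their medians. Without WT Western-diet replicate 2 the differences of Plau and Plaur were 0.66 and 0.85. That replicate held the lowest value of its group for both genes.

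On the control diet, KO minus WT was 0.21 ± 0.27 for Plau, less than its SE, and 0.83 ± 0.20 for Plaur. Plaur ranked 9 of 453 in this comparison and Plau 128, with a median gene at 0.07. Here 1.99% of genes were called higher and 0.883% lower. Without KO control-diet replicate 2, Plau was at 0.42 and Plaur at 0.74. With labelled age in the model, which differs between these groups, Plau was at 0.05 ± 0.40 and Plaur at 0.91 ± 0.30. The ages did not overlap, at 231 to 232 days in WT and 250 to 259 in KO. The age slope thus rested on spread within groups, widest in KO on the Western diet (217 to 252 days). This fit therefore cannot tell genotype from labelled age on the control diet.

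Western minus control diet in WT was 1.03 ± 0.27 for Plau and 0.98 ± 0.20 for Plaur. They ranked 8 and 11 of 453, with a median gene at 0.09. In this comparison 4.86% of genes were called higher and 3.75% lower. Without WT Western-diet replicate 2 these differences were 1.36 and 1.21. In KO the diet difference was 1.81 ± 0.27 for Plau, a 3.50-fold change, and 1.23 ± 0.20 for Plaur, 2.34-fold. They ranked 13 and 55, with a median gene at 0.27. Here 37.3% of genes were called higher and 7.95% lower. The 4 comparisons share groups and are not separate evidence.

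The diet difference in KO exceeded that in WT by 0.78 ± 0.39 for Plau and by 0.24 ± 0.28 for Plaur. Plaur ranked 219 of 453 on this measure, near the middle, and Plau 64, with a median gene at 0.21. By limma, 1.1% of genes were called with a larger diet difference in KO and 0.221% with a smaller one. Without both WT Western-diet replicate 2 and KO control-diet replicate 2, a choice made after seeing the data, Plau was at 0.24 and Plaur at 0.11. The KO library lay within its group on the first principal component and held the lowest Plau of all libraries. This run thus leaves out an extreme value of a member. Plaur was at -0.21 with libraries recentred on their medians and at -0.38 with quantile normalization.

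The size of the members' differences moved with the scaling of the libraries. On the Western diet, KO minus WT went from 0.99 to 0.42 for Plau and from 1.08 to 0.51 for Plaur when each library was recentred on its own median. That recentring moved the median gene from 0.26 to -0.30. Relative to the median gene, in the authors' scaling, Plau was at 0.73 and Plaur at 0.82. Under every one of 21 alternatives the 4 genotype and diet differences kept their sign for both genes. Several runs could not move a difference. These left out a library outside the groups compared, kept low genes, or fitted only the 6 libraries compared. The ranges of the differences were 0.42 to 1.25 for Plau and 0.51 to 1.26 for Plaur in KO minus WT on the Western diet. On the control diet they were 0.05 to 0.42 and 0.72 to 0.91.

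**Figure D2:**
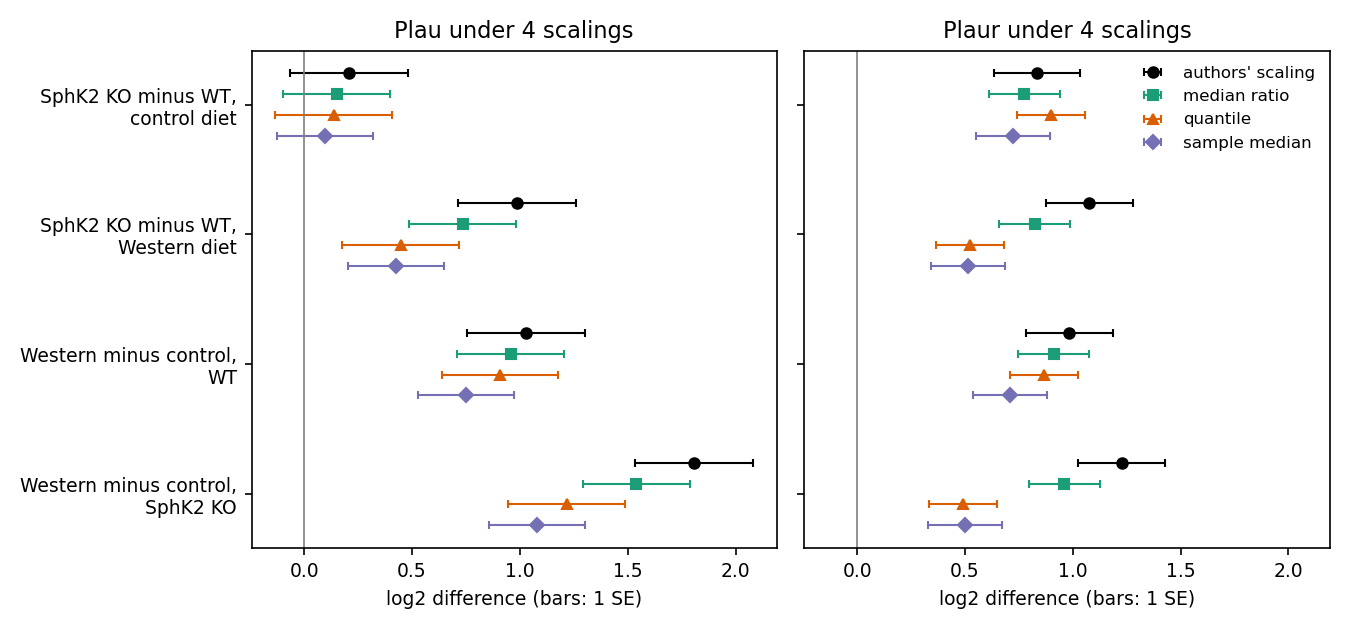
Log2 differences of Plau (left) and Plaur (right) in 4 comparisons, under the authors' scaling and 3 others, with bars for 1 SE. All points lie above 0, while points on the Western diet and in KO shift most, such as Plaur for Western minus control diet in KO from 1.23 to 0.49.

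The ratio of both genes within a library is the same under any scaling by 1 factor per library, though not under quantile normalization. Log2 of Plaur over Plau was -0.16, -0.23 and -0.12 in WT on the control diet. It was -0.37, 0 and -0.26 in WT on the Western diet, and -0.01, -0.04 and -0.30 in KO on the Western diet. These 3 groups overlapped, between -0.37 and 0. In KO on the control diet it was 0.04, 1.11 and 0.28 (0.48 ± 0.56), above every other library, but only just in replicate 1. That replicate held 39 recovered counts of Plaur and 38 of Plau. WT Western-diet replicate 2, the next library at 0, held 36 of each. The exact Poisson interval of the 38 counts, 26.9 to 52.2, is far wider than this margin. KO control-diet replicate 2, with 19 counts of Plau, held the highest ratio. Since each probe has its own efficiency, only changes of this ratio between libraries can be read, not its level.

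The summed markers of cells that can make both proteins differed between the groups as follows. The 10 monocyte and macrophage markers on the panel summed to 1555 to 1695 normalized counts in WT on the control diet, 1810 to 2062 in KO on the control diet, 1443 to 2787 in WT on the Western diet and 3439 to 3906 in KO on the Western diet. WT Western-diet replicate 2 held the lowest sum of all libraries. In KO minus WT on the Western diet 8 of the 10 were called higher and 1, Cd163, a scavenger receptor of resident macrophages, lower, against 32.2% and 3.31% of all genes. In KO minus WT on the control diet 0 of the 10 were called by limma, with 1 at an unadjusted p under 0.05. Of all genes, 1.99% were called higher and 0.883% lower there. The median log2 difference of the 10 was 0.27, against 0.07 over all genes. For diet in WT 1 of the 10 was called, Ccr2, higher, where 4.86% of all genes were called higher and 3.75% lower. For diet in KO 8 were called higher and 2 lower, against 37.3% and 7.95% of all genes. The 5 neutrophil markers summed to 166 to 206 in WT on the control diet, 219 to 385 in WT on the Western diet and 802 to 851 in KO on the Western diet. In KO on the control diet the sums were 301, 959 and 606 in replicates 1, 2 and 3. S100a8 and S100a9 averaged 239 and 287 there, of a mean sum of 622. In KO minus WT these 2 of the 4 neutrophil markers tested were called higher on each diet by limma. Of all genes, 1.99% were called higher on the control diet and 32.2% on the Western diet. Csf3r and Camp were not called, with Camp at 0.07 on the control diet and -0.11 on the Western diet. T cell markers, 6 in all, summed to 129.5 to 212 over all libraries with overlap between groups. The 2 endothelial markers summed to 582 to 602 in WT and 569 to 612 in KO on the control diet, and to 635 to 693 and 829 to 877 on the Western diet. The 2 stellate cell and fibroblast markers summed to 58.9 to 85.5 outside KO on the Western diet and to 100.7 to 101.9 there. Muc1, the bile duct marker on the panel, was at 30.2 to 35.8 in WT and 39.5 to 43.1 in KO on the control diet, and at 47.9 to 54.7 and 51.5 to 59.5 on the Western diet. The part of any cell class in the levels of Plau and Plaur was not tested.

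Per 1000 summed macrophage marker counts, a ratio added as a description, Plau was 16.7, 19.4 and 16.3 in WT on the control diet (17.5 ± 1.73) and 22.1, 11.8 and 18.5 in KO (17.4 ± 5.24). On the Western diet it was 30.3, 25.4 and 32.9 in WT (29.6 ± 3.79) and 34.7, 27.7 and 35.0 in KO (32.5 ± 4.15). On this scale the diets did not overlap and the genotypes overlapped on each diet. WT Western-diet replicate 2 lay with its group here. Plaur was 14.9, 16.6 and 15.0 in WT on the control diet (15.5 ± 0.915) and 22.7, 25.4 and 22.5 in KO (23.5 ± 1.63), with no overlap. On the Western diet it was 23.5, 25.4 and 27.4 in WT (25.5 ± 1.94) and 34.5, 27.0 and 28.3 in KO (29.9 ± 4.0), where the genotypes overlapped.

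**Figure D3:**
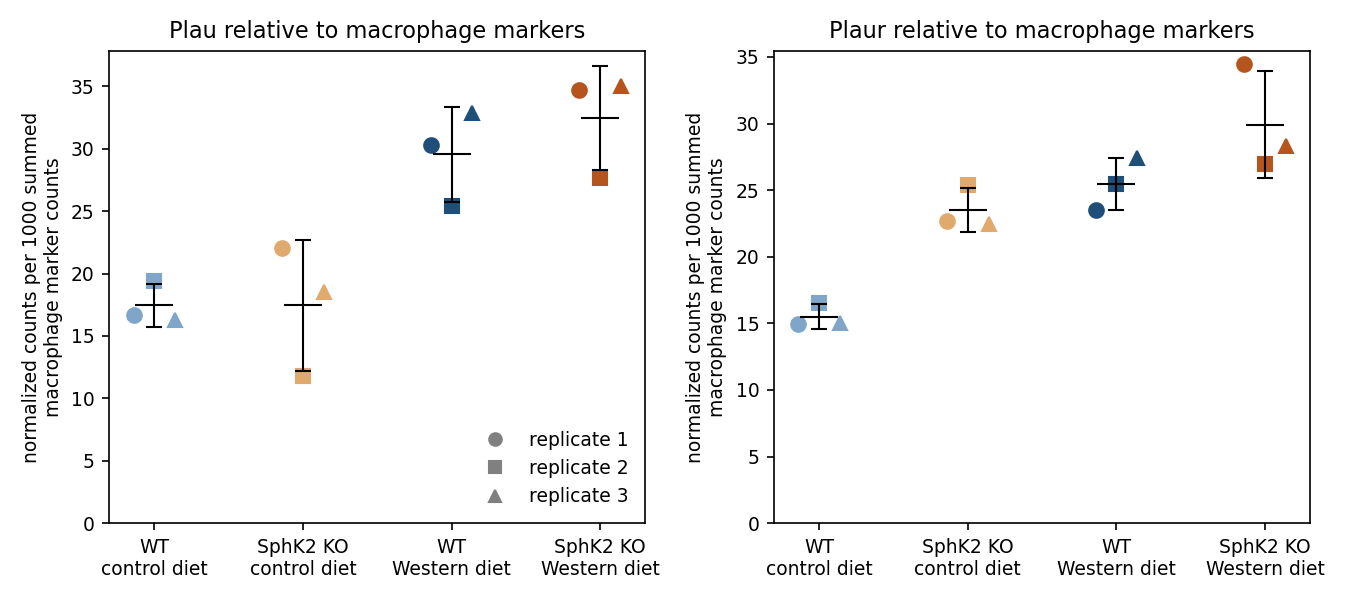
Normalized counts of Plau (left) and Plaur (right) per 1000 summed counts of 10 macrophage markers, 1 symbol per library, with bars for the mean and SD of 3 libraries and axes from 0. Plau splits by diet, at 11.8 to 22.1 against 25.4 to 35.0, while for Plaur WT on the control diet lies apart at 14.9 to 16.6.

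Other genes of the urokinase system were described from 4 lists of 84 genes, of which 29 were on the panel and all 29 were tested. Few of the proteases, inhibitors and substrates of the pathway were measured, 2 of 30. They were Fn1, fibronectin, and Serping1, the C1 inhibitor. In KO minus WT they were at -0.05 and 0.18 on the Western diet and at 0.35 and 0.49 on the control diet, and for diet in WT at 0.02 and -0.27, with no call (adjusted p of 0.167 or more, limma). In KO, both were lower on the Western diet, by limma at -0.38 (adjusted p = 0.0264) and -0.58 (adjusted p = 0.0181). Fn1 turned to 0.10 under quantile normalization. Both calls were lost with age in the model and with only the 6 libraries compared. They were also lost without both WT Western-diet replicate 2 and KO control-diet replicate 2. Of the 8 hepatocyte markers 6 were called lower on the Western diet in KO, against 7.95% of all genes.

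In KO minus WT on the Western diet, 14 of the 29 genes rose and 0 fell, with a median log2 difference of 0.53 against 0.26 over all genes, where 32.2% were called higher. With libraries recentred on their medians the split was 3 higher and 8 lower, and with quantile normalization 4 and 0. Among the receptor's surface partners and clearance receptors 6 of 12 rose by limma. Itgb2, the beta chain shared by leukocyte integrins, went from 91.3 ± 29.0 normalized counts in WT to 184 ± 10.2 in KO, a log2 difference of 1.05 ± 0.21 (adjusted p = 0.00542). Itgam, which pairs with it in the integrin Mac-1, rose by 0.87 (adjusted p = 0.0126). Itgax rose by 1.35, Itga4 by 1.06 and Itgal by 0.85, all alpha chains of leukocyte integrins. Pdgfrb, a growth factor receptor of stellate cells and fibroblasts, rose by 0.61 (adjusted p = 0.0252). Itgb1, the integrin beta chain found on most cells, was at 0.19 (adjusted p = 0.0802). Vtn, the liver-made matrix ligand of the receptor, was at -0.07 (adjusted p = 0.831), and Il6st at 0.14 (adjusted p = 0.296).

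Of 9 signals known to raise either gene, 4 rose in this comparison by limma, and 32.2% of all genes did. Tgfb1, a cytokine that drives matrix production, rose from 278 ± 80.2 to 518 ± 14.5 normalized counts, 0.93 ± 0.17 on the log2 scale (adjusted p = 0.00409). Il1a rose by 0.81 (adjusted p = 0.00109), Il1b by 0.79 (adjusted p = 0.0158) and Csf1, the growth factor of macrophages, by 0.66 (adjusted p = 0.00814). These 3 calls were lost on library medians, at 0.25, 0.22 and 0.10, and by quantile normalization, at 0.35, 0.23 and 0.16. Tnf was at 0.64 (adjusted p = 0.152). Of 6 transcription factors 4 rose: the NF-kappaB family members Relb by 1.02, Nfkb2 by 0.88 and Rela by 0.36, and Ets1, a factor that binds ETS sites, by 0.36 (adjusted p = 0.0235). On library medians the calls of Relb (0.46) and Nfkb2 (0.32) were lost, as were those of Itga4 (0.49), Itgam (0.30), Itgal (0.29) and Pdgfrb (0.04). Rela and Ets1 turned to -0.20 and -0.21 with libraries recentred on their medians. With 1 library left out at a time, the call of Itgal was lost without KO Western-diet replicate 2 (range of the difference 0.60 to 1.16). That of Il1b was lost without WT Western-diet replicate 2 or KO replicate 1 on that diet (0.59 to 1.02). Those of Ets1 (0.24 to 0.47) and Pdgfrb (0.53 to 0.71) were lost without WT Western-diet replicate 2 or 3 or KO replicate 2, and besides without KO replicate 1 for Ets1 and 3 for Pdgfrb. The calls of Itgb2, Itgax and Tgfb1 held under each alternative run. The Jun and Fos subunits of AP-1 were not among the probes.

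On the control diet 1 of the 29 genes passed in KO minus WT, with a median of 0.11 against 0.07 over all genes. A count of 1 is near the share of all genes called higher, 1.99%. It was Il6st, the shared receptor chain of the interleukin 6 family, at 0.45 ± 0.09 (adjusted p = 0.0226, limma), and the call was lost on leaving out any 1 of the WT control-diet libraries or KO control-diet replicate 2 or 3 (0.34 to 0.54). It was also lost with age in the model, on library medians and with only the 6 libraries compared. By p-value the next in its list was Vtn, at 0.48 (adjusted p = 0.21). Among the signals Tgfb1 was at 0.24 (adjusted p = 0.506) and Csf2, a growth factor of myeloid cells, at 0.40 (adjusted p = 0.604). Among the factors Relb was at 0.27 (adjusted p = 0.708) and Ets1 at -0.09 (adjusted p = 0.767). Itgam was at 0.43 (adjusted p = 0.336) and Tnf at -0.36 (adjusted p = 0.676), while Itgb2, Itgb1, Csf1 and Il1b lay between -0.05 and 0.06.

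In WT, the Western diet was paired with 1 higher and 1 lower call among the 29 by limma, near the shares of all genes, 4.86% and 3.75%. Il1a rose by 0.42 (adjusted p = 0.034) and Itga5, the alpha chain of the fibronectin receptor, fell by 0.49 (adjusted p = 0.0383). Both calls were lost on leaving out any 1 of the WT control-diet libraries, WT Western-diet replicate 1 or 3, or KO Western-diet replicate 3. Il1a also lost its call without KO control-diet replicate 3, and Itga5 without KO Western-diet replicate 1. In these omissions the differences were 0.38 to 0.45 and -0.56 to -0.41. Il1a also lost its call in the other scalings, at 0.35 on median ratios, 0.15 on library medians and 0.13 by quantile normalization, and both lost theirs with age in the model and with only the 6 libraries compared. Without WT Western-diet replicate 2, 6 genes were higher and 1 lower. Itgax was at 1.03 (adjusted p = 0.0757), Tgfb1 at 0.38 (adjusted p = 0.194), Relb at 0.53 (adjusted p = 0.26) and Nfkb2 at 0.30 (adjusted p = 0.375). Tnf was at -0.43, Vtn at -0.31, Csf1 at -0.19 and Il1b at -0.07. Itgb1 was at 0.09, Il6st at 0.19, Itgam at 0.29 and Itgb2 at 0.44. The median of the list, 0.09, was that of all genes.

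In KO, 17 of the 29 genes were higher and 4 lower on the Western diet by limma, with a median of 0.44 against 0.27, where 37.3% of all genes were called higher and 7.95% lower. Recentred on library medians, the split was 6 and 13, and on median ratios 10 and 5. The leukocyte integrins led: Itgax rose by 2.21 (adjusted p = 0.000329), from 31.4 ± 8.2 to 145.5 ± 11.1 normalized counts, and Itgb2 by 1.54 (adjusted p = 0.000264). Itga4 rose by 1.38, Itgal by 0.81, Pdgfrb by 0.75 and Itgam by 0.73. The last 3 lost their calls on library medians, at 0.083, 0.021 and 0.0049, by quantile normalization, at 0.39, 0.13 and 0.43, and with age in the model. Itgb1 rose by 0.23 (adjusted p = 0.0349) in the authors' scaling and was at -0.50 with recentring on library medians. Among the signals Il1a rose by 1.23 (adjusted p = 1.48e-05) and Tgfb1 by 1.07 (adjusted p = 0.000436). Il1b and Csf1 rose by 0.67 and 0.44 and turned to -0.06 and -0.29 with recentring on library medians, while Tnf was at 0.57 (adjusted p = 0.183) and Il6st at -0.13 (adjusted p = 0.293). Relb rose by 1.28 (adjusted p = 0.00283), Nfkb2 by 1.04 (0.31 on library medians, no longer called) and Ets1 by 0.55. Nfkb1 and Rela rose by 0.36 and 0.23, and with recentring on library medians Ets1, Nfkb1 and Rela turned to -0.18, -0.37 and -0.50. With age in the model the calls of Relb (1.18), Nfkb1 (0.39), Rela (0.22), Csf1 (0.46), Il1b (0.76) and Itgb1 (0.20) were lost. Vtn fell by 0.86 (adjusted p = 0.00312; -0.23 and not called by quantile normalization), and is itself among the hepatocyte markers. Itga5 fell by 0.42 (adjusted p = 0.0194). For the difference between the genotypes in the diet comparison, Il1a alone of the 29 passed, at 0.80 ± 0.15 (adjusted p = 0.0414, limma). Of all 453 genes, 1.1% were called with a larger diet difference in KO and 0.221% with a smaller one. The Il1a call was lost on median ratios, on library medians, by quantile normalization and with age in the model. It was also lost on 8 of 12 omissions of 1 library. By limma, 14 of the 29 had an unadjusted p under 0.05, as did 142 of the 453 genes.

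**Figure D4:**
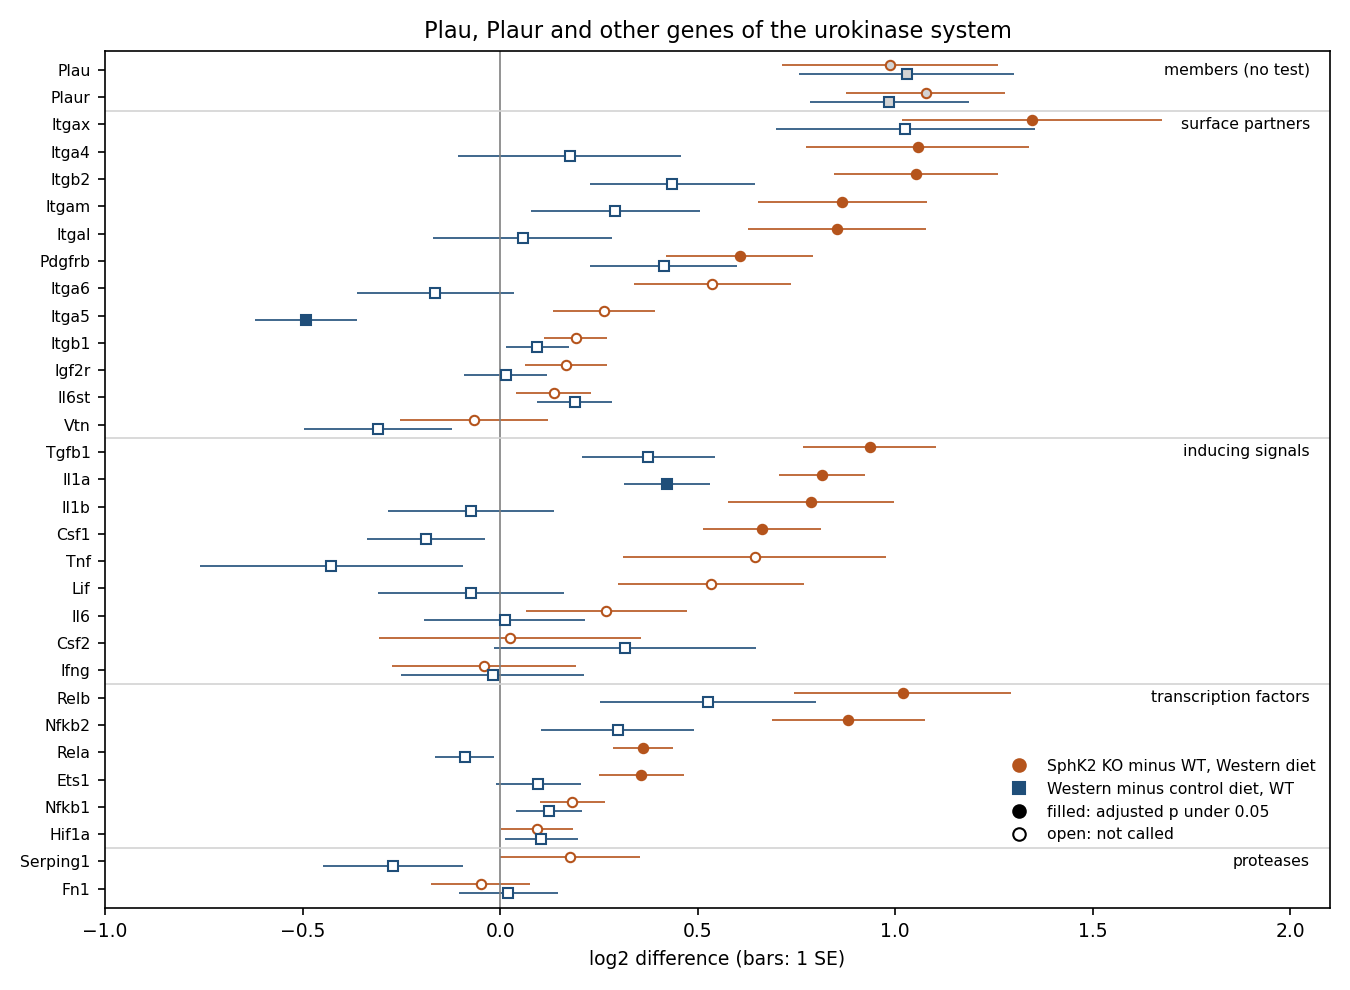
Log2 differences, with bars for 1 SE, of Plau, Plaur and 29 other genes of the urokinase system, for KO minus WT on the Western diet (circles) and Western minus control diet in WT (squares). Filled symbols passed an adjusted p of 0.05 and open ones did not, while Plau and Plaur, in grey, carry no test. In KO minus WT 14 genes are filled on the right of 0, against Il1a (right) and Itga5 (left) for diet in WT.

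Across the 12 libraries, Plau and Plaur correlated with Pearson r = 0.90 and Spearman rho = 0.81 on the log2 scale. After group means were removed, r was 0.56. In the 6 Western-diet libraries r was 0.97, and in the 6 control-diet libraries 0.22. Without the 2 libraries farthest from the median of Plau it was 0.83. These are descriptions of libraries that share 4 groups and 1 scaling, and no p is given. Each gene was nearer in pattern to many others: 51 genes had r of at least 0.9 with Plau and 48 with Plaur, and Plaur was rank 51 for Plau.

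The 6 genes most like Plau were Ccl2, a chemokine that draws monocytes (r = 0.98), Tgfbr2 (0.98), Lilrb4 (0.98), Syk (0.97), App (0.97) and Tgfbi (0.96). With group means removed, Ccl2 was at 0.94 and the others between 0.68 and 0.83. The 6 most like Plaur were Ncf4, a subunit of the phagocyte oxidase (0.98), Mapkapk2 (0.97), Tnfaip3 (0.96), Trem2 (0.96), Fcgr3 (0.95) and Icam1 (0.95). With group means removed, Ncf4 was at 0.99 and the others between 0.81 and 0.90. With libraries recentred on median ratios, Mapkapk2 was at 0.79 and the others listed for Plaur between 0.93 and 0.97. The genes listed for Plau then lay between 0.95 and 0.98. The 2 sets of 6 share no gene.

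The authors' deposited table of their own comparison lists both Plau and Plaur with a log2 fold change of 0, a p-value of 1 and an adjusted p-value of 1. It lists 256 genes in this way and gives a fold change for 291. The mean deposited log2 level was 5.65 for each member. The lowest level of a gene with a fold change was 5.68, and 0 genes with a fold change lay below Plau. Level alone did not separate them, since 10 genes listed at 0 in the authors' deposited table, Plau included, lay at or above Plau's level, up to 6.05. Across those 291 genes, which are not independent replicates, the correlation of that fold change in the authors' deposited table with KO minus WT on the Western diet was r = 0.985. For both Plau and Plaur the KO and WT libraries of the Western diet did not overlap. How many of all genes share this was not counted, and 32.2% of the 453 genes tested were called higher there.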

How the data were processed

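NanoString probe signals of 12 libraries were used. The authors deposited log2 values of normalized counts, per the file headers; 100% of them came out as whole counts times 1 factor per library (tolerance 0.001). The sources used here do not say how those factors were set, and no background probes were analysed here. The authors' deposited table also holds log2 fold changes, p-values and adjusted p-values of 1 comparison. A second deposited table of log2 values did not match: 0 of its 12 columns equalled the workbook column of the same sample and 12 equalled another sample's, so every group difference rests on the workbook, whose headers carry the animal numbers of the labels. Replicate numbers follow deposited order and only name libraries. Labelled diet durations ran from 16 to 27 weeks in that order and were not used; the protocol gives 16 weeks from an age of 12 to 18 weeks, at most 238 days at the end, which several knockout labels exceed.

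The plan took the values as linear, so they were returned to that scale, 1 was added and log2 taken, and low genes' changes come out too small on that scale. Tests took in the 453 of 547 genes whose mean reached 20 normalized counts. All 12 libraries entered 1 fit of limma (3.58.1, R 4.3.3) with group means, a variance trend and moderated variances, with two-sided p-values adjusted by Benjamini-Hochberg within each comparison (0.05). The scripts were tested on simulated data. Members, lists and rules were chosen with earlier results of these data known. The rule named Plau and Plaur, up to 8 called genes per list in order of p-value, or the 2 with the smallest p-values where none passed, 9 set genes (Vtn, Itgam, Itgb2, Itgb1, Il6st, Tgfb1, Csf1, Il1b and Tnf), and the 6 most alike per member. Alternatives changed pseudocount, filter, scaling, age, test and libraries.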

Additional observations from a re-analysis of the deposited data

Results flagged for a closer look

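For Il1a, which encodes a cytokine released by injured cells, the diet difference was larger in KO than in WT in the authors' scaling, by a test of the difference itself. The Western diet's log2 difference in KO minus that in WT was 0.805 (adjusted p = 0.0414, interaction term in limma over 453 genes, n = 3 per group). Its normalized counts were 83.8 ± 1.8 in WT and 84.5 ± 5.7 in KO on the control diet, and 112.8 ± 5.7 and 199 ± 5.7 on the Western diet. Of all genes tested 6 passed this test, and 142 had an unadjusted p under 0.05. In other scalings it did not pass: it was 0.61 on median ratios (adjusted p = 0.0522, limma), 0.51 by quantile normalization (adjusted p = 0.108) and 0.35 on library medians (adjusted p = 0.227). With age in the model it was 0.84 (adjusted p = 0.223, limma). Without both WT Western-diet replicate 2 and KO control-diet replicate 2 it was 0.74 (adjusted p = 0.0527). Leaving out 1 library at a time gave 0.76 to 0.85, with the call lost on 8 of 12 omissions: WT control-diet replicate 1 or 3, WT Western-diet replicate 3, KO control-diet replicate 2 or 3, or any KO Western-diet library.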

How the results depend on the processing

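No paired analysis was made, since each library carries its own animal number and the labels name no pairing of mice between groups. For KO minus WT on the Western diet, Plau (0.99) was at 0.42 with recentring on library medians and 0.45 with quantile normalization. Plaur (1.08) was at 0.82 on median ratios, 0.51 on library medians and 0.53 by quantile. Genes called went from 161 to 95 by quantile (42 higher, 53 lower), and the split of 146 higher and 15 lower became 69 and 43 on median ratios and 26 and 130 on library medians. Urokinase system calls went from 14 to 4 by quantile. For KO minus WT on the control diet, genes called went from 13 to 21 on median ratios, 23 by quantile, 5 with age in the model and 7 with only the 6 libraries compared, and the split of 9 higher and 4 lower became 5 and 7 on library medians. The single urokinase system call went to 0 on library medians, with age and with the 6 libraries. For diet in WT, Plaur (0.98) was at 0.71 on library medians. Genes called went from 39 to 71 on library medians (11 higher, 60 lower), 18 with age and 19 with the 6 libraries. Without both WT Western-diet replicate 2 and KO control-diet replicate 2 there were 114. The split of 22 and 17 became 17 and 21 on median ratios. Urokinase system calls went from 2 to 0 with age, 1 with voom, 8 without both libraries and 1 with the 6 libraries; the split of 1 and 1 became 0 and 2 on library medians and 1 and 2 by quantile. For diet in KO, Plau (1.81) was at 1.08 on library medians and 1.22 by quantile. Plaur (1.23) was at 0.96 on median ratios, 0.50 on library medians and 0.49 by quantile. Genes called went from 205 to 92 with age, and the split of 169 and 36 became 108 and 96 on median ratios 55 and 228 on library medians and 82 and 108 by quantile. Urokinase system calls went from 21 to 10 by quantile and 9 with age. For the genotype difference in the diet comparison, Plau (0.78) was at 0.33 on library medians, 0.31 by quantile and 0.24 without both libraries, and Plaur (0.24) at -0.21 and -0.38 under the first 2.

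Leaving out 1 library at a time gave 84 to 177 genes called in KO minus WT on the Western diet (84 without KO Western-diet replicate 2, 94 without WT Western-diet replicate 2). It gave 6 to 43 on the control diet (43 without KO control-diet replicate 1, 6 without WT control-diet replicate 3 or KO control-diet replicate 3) and 3 to 94 for diet in WT (94 without WT Western-diet replicate 2, 3 without WT control-diet replicate 3 or WT Western-diet replicate 3). Urokinase system calls ran from 0 to 4 for KO minus WT on the control diet (4 without KO control-diet replicate 1), from 0 to 7 for diet in WT (7 without WT Western-diet replicate 2) and from 13 to 21 for diet in KO (13 without KO Western-diet replicate 3). For diet in KO, the calls of Csf1, Fn1, Igf2r, Il1b, Itga5, Itgam, Itgb1, Rela and Serping1 were each lost on leaving out 1 of up to 5 libraries, KO libraries all except WT Western-diet replicate 3 for Itgb1.

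Directions turned in KO minus WT on the Western diet for Ets1 (-0.21 on library medians) and Rela (-0.20, and -0.0084 by quantile). For diet in KO they turned for Csf1 (-0.29 on library medians, -0.075 by quantile), Ets1 (-0.18 on library medians), Fn1 (0.10 by quantile), Igf2r (-0.43 and -0.068), Il1b (-0.058 and -0.063), Itgb1 (-0.041 on median ratios, -0.50 on library medians), Nfkb1 (-0.37 on library medians, -0.10 by quantile) and Rela (-0.041 on median ratios, -0.50 on library medians, -0.10 by quantile). The cause was not tested. Members with 19 to 45 counts in control-diet libraries limit the precision of every difference against those groups.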
